A study of Rattus norvegicus with 8 samples.

Results

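The collagen genes are all symbols of the count table that consist of Col, a type number, the letter a and a chain number. There are 43 of them among 28909 symbols, namely 11 fibrillar collagens, 6 chains of type IV collagen and 26 chains of other types. Ribosome-depleted total RNA came from primary hippocampal neurons of Sprague-Dawley rats, prepared from embryos and grown on porous filter inserts, where the somata stay on the upper side and processes grow through to the lower side. Cultures received the GABA-A receptor antagonist picrotoxin (PTX) for 48 h, from day 18 to day 20 in vitro, or its vehicle as control. The 4 conditions were somata control, somata PTX, processes control and processes PTX, with 2 libraries each, and nothing in the sources used here says what the replicate numbers 1 and 2 mark. The labels name no genetic alteration, and all groups share the strain and the culture system. With 2 libraries per condition whose origin from separate cultures is not stated, the p-values measure the spread between these libraries.

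Collagens are secreted or membrane-bound proteins whose chains wind around each other into a helix. Fibrillar collagens (types I, III, V, XI and XXVII here) form the load-bearing fibrils of connective tissue and are made mainly by fibroblasts and related cells, in the brain by those of the meninges and around vessels. Type IV collagen forms the network of basement membranes, the thin sheets that lie under endothelium and meninges. The other types decorate fibrils (the FACIT types IX, XII, XVI, XIX, XX and XXII), build beaded filaments (type VI) or short chain networks (types VIII and X), span the plasma membrane (types XXIII and XXV) or release fragments such as endostatin (type XVIII). Healthy brain tissue holds little fibrillar collagen, while neurons and glia are known to make some of the others, such as type XIX and type XXV.

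Levels are CPM, the counts of a gene scaled to a common library total, after TMM scaling, which assumes that most genes do not differ between libraries. They are compared within a gene only, since transcript lengths were not used. Values of a condition are given for replicate 1 and then replicate 2. Library totals ranged from 12290890 to 18455662 counts, but outside the mitochondrial genome somata libraries held 9517542 to 11227599 counts and process libraries 4702054 to 5491237, so that collagens were counted on fewer reads in processes. The labelled cells were checked by marker lists. The summed level of 10 neuron markers was 1910 to 2320 CPM in somata and 4300 to 5860 CPM in processes, and that of 10 astrocyte markers 3190 to 4510 CPM and 11500 to 15000 CPM. Map2 and Gfap carried most of these differences. Map2 stood at 812 to 985 CPM in somata and 3370 to 4690 CPM in processes, and Gfap at 1060 to 1780 CPM and 7700 to 11100 CPM. Without Map2 the neuron markers summed to 1100 to 1340 CPM in somata and 905 to 1170 CPM in processes, and of all 10 markers, Map2 included, 3 were higher and 5 lower in processes of control cultures, with a median log2 fold change of -0.33. Without Gfap the astrocyte markers summed to 2140 to 2730 CPM and 3760 to 3990 CPM, and of the 9 tested, 5 were higher and 2 lower in processes of control cultures, with a median of 0.61. Over all tested genes 25.8% were higher and 21.9% lower in the same comparison, and the 3 of 10 neuron markers that were higher lay near that share. Microglia markers summed to at most 2.66 CPM and endothelial markers to between 2.12 and 10.9 CPM. In the endothelial list Cldn5 and Tie1 had 0 reads in every library, while Kdr made up most of the somata sums. Kdr stood at 3.49 and 2.31 CPM in somata control, 8.13 and 7.24 CPM in somata PTX, and 1.45 to 3.22 CPM in processes. Of the 2 tested endothelial markers 1 was called higher after PTX in somata, where 3.59% of all genes were called. The 12 markers of fibroblasts and meningeal cells summed to between 36.6 and 69.5 CPM in somata and between 20.1 and 35.6 CPM in processes. In such bulk samples, fewer cells of a type and less RNA per cell cannot be told apart.

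Of the 43 collagens, 32 had more than 20 reads in at least 2 libraries and were tested, among 14309 genes in all. These were 9 of the 11 fibrillar collagens, all 6 type IV chains and 17 of the 26 others. The 11 that were not tested reached at most 26 reads in any library. They were Col2a1 (highest count 10 reads), the main fibrillar collagen of cartilage, Col24a1 (15 reads), Col6a4 (21 reads), Col6a5 (16 reads), Col6a6 (14 reads), Col9a1 (21 reads), Col13a1 (9 reads), Col14a1 (21 reads), Col15a1 (6 reads), Col17a1 (19 reads) and Col26a1 (26 reads). A change in these genes was not detectable at this depth.

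Several collagen genes lie next to each other in the rat genome, and some start close to each other on opposite strands. The gene order comes from RefSeq for GRCr8, which is not the assembly the counts were made on. There the neighbouring pairs with both members tested are Col4a1 and Col4a2 on chromosome 16, Col4a3 and Col4a4 on chromosome 9, Col3a1 and Col5a2 on chromosome 9, and Col6a1 and Col6a2 on chromosome 20. RefSeq start windows, 250 bases before to 50 after a gene's start, matched 34 of the 43 symbols, and those of Col1a1 and Col3a1 were not used here. The window of Col4a1, a chain of nearly every basement membrane, is shown because it overlaps that of Col4a2 on the other strand by 176 bases, with starts 77 bases apart. The window of Col4a3 overlaps that of Col4a4 by 88 bases, with starts 413 bases apart. The shared bases are in capitals, the build is GRCr8, and both are written from the plus strand, the strand of Col4a1 and Col4a3.
Col4a1, chr16:84885347-84885646: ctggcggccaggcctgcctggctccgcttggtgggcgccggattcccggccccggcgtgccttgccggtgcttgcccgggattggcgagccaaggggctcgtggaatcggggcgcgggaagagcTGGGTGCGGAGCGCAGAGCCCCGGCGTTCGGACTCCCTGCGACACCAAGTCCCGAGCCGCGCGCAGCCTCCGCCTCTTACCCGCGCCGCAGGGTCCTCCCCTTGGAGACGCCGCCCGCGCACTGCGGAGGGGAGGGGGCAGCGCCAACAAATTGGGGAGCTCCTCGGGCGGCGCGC
Col4a3, chr9:91323740-91324039: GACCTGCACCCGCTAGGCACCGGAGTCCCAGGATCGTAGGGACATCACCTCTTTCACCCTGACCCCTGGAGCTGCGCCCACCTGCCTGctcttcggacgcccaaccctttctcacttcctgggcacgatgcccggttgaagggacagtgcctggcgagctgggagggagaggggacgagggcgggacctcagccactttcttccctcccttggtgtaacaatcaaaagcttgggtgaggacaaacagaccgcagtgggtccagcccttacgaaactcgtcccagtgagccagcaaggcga
The windows of Col1a2, whose product is a chain of type I collagen, and of Col23a1, a transmembrane collagen, are shown because Col1a2 had among the largest differences between replicates and Col23a1 was the collagen called for PTX in processes. In capitals are the motifs found in them by a search of both strands for the CCAAT box, for the letters TATAAA of the TATA box, and for the letters GGGCGG of the GC box.
Col1a2, plus strand, chr4:33518307-33518606: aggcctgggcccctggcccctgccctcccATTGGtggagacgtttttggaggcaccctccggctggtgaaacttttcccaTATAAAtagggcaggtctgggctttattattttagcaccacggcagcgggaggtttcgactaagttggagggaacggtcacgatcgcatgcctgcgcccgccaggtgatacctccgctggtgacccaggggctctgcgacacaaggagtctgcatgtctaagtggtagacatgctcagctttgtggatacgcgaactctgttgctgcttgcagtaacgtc
Col23a1, plus strand, chr10:36050077-36050376: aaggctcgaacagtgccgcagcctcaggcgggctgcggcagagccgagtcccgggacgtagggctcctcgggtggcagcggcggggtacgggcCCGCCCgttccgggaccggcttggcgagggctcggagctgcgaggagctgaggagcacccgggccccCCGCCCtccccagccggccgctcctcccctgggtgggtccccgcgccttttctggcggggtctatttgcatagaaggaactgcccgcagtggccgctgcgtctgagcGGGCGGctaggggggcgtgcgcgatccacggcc
The Col1a2 window held a CCAAT on the minus strand starting at position 30 and a TATAAA at position 81, counted from the first base, and the Col23a1 window held GGGCGG 3 times over both strands. Among the 34 collagen windows, 11 held CCAAT (32.4%), 4 held TATAAA (11.8%) and 19 held GGGCGG (55.9%). Among all 27457 windows of that length the shares were 37.7%, 14.3% and 34.9%. These matches describe letters in a window and not binding sites.

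Summed over all 43 genes, collagens took 643 and 495 CPM in somata control, 662 and 553 CPM in somata PTX, 447 and 321 CPM in processes control, and 506 and 342 CPM in processes PTX. In each condition the first replicate lay above the second. Fibrillar collagens summed to 203 and 139 CPM in somata control and to 143 and 95.7 CPM in processes control. Type IV chains summed to 272 and 203 CPM against 193 and 135 CPM, and the other collagens to 168 and 152 CPM against 110 and 89.8 CPM. In PTX cultures the fibrillar sums were 197 and 150 CPM in somata and 167 and 100 CPM in processes, the type IV sums 276 and 229 CPM and 203 and 146 CPM, and those of the other collagens 189 and 173 CPM and 136 and 95.5 CPM. The fibrillar sums of the compartments overlapped, the type IV sums met at 203 CPM, and the sums of the other collagens stayed apart in all 8 libraries.

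**Figure D1:**
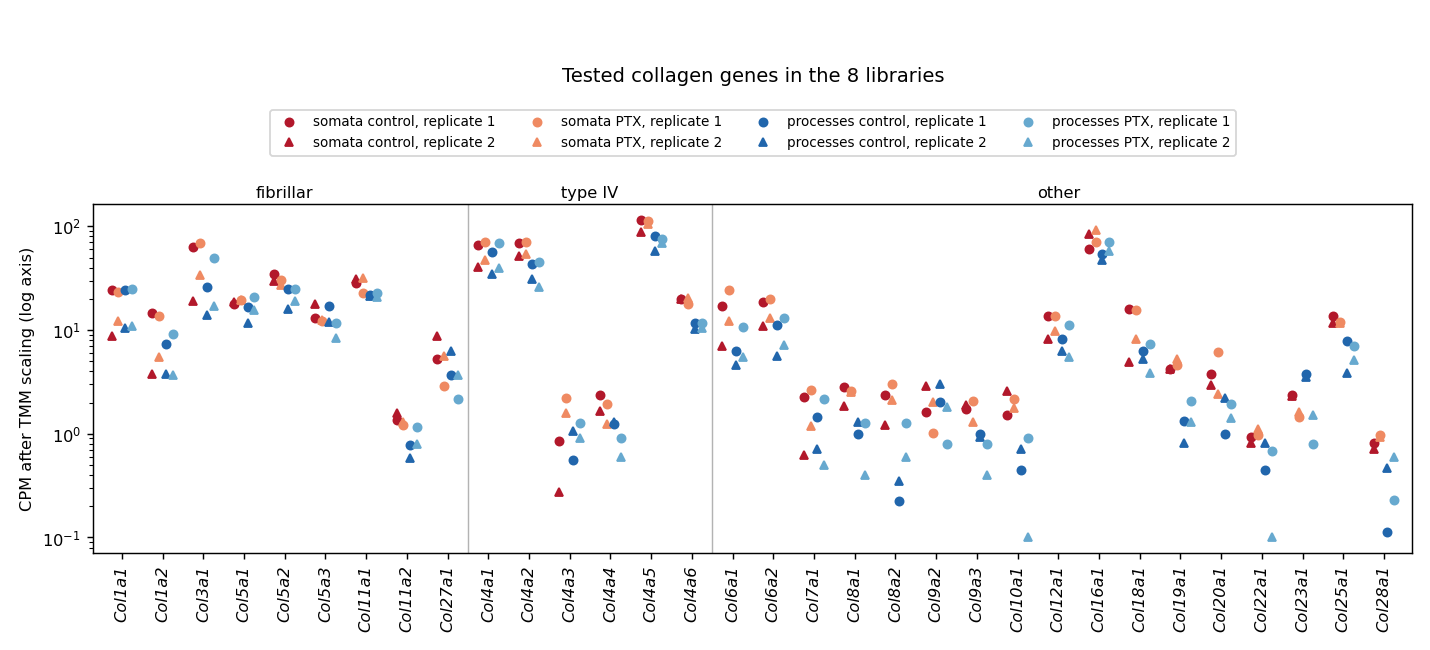
Levels of the 32 tested collagens in the 8 libraries, in CPM after TMM scaling on a log axis, by class. Red and orange points are somata, dark and light blue points are processes, circles are replicate 1 and triangles replicate 2. For Col1a1 the circles lie at 23.4 to 24.8 CPM and the triangles at 8.7 to 12.2 CPM in both compartments, while for Col4a6 the colours separate.

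The first comparison asked which collagen transcripts were lower or higher in processes than in somata. In control cultures, 11 of the 32 tested collagens were lower in processes and 0 were higher, by edgeR's quasi-likelihood test with Benjamini-Hochberg adjustment over all tested genes. Over all 14309 genes, 21.9% were called lower and 25.8% higher. The median log2 fold change, processes over somata, was -0.68 for the collagens and -0.05 for all genes, and 28 of the 32 values were negative. In PTX cultures 11 were lower and 0 higher, where 24% of all genes were lower and 25.7% higher, and all 32 values were negative, with a median of -0.69 against -0.05. A total of 13 collagens passed the read filter only through the somata libraries, a choice that favours genes that are high in somata, so that their compartment values are a description and no support. They were Col4a3, Col4a4, Col7a1, Col8a1, Col8a2, Col9a2, Col9a3, Col10a1, Col11a2, Col19a1, Col20a1, Col22a1 and Col28a1, of which Col4a3 and Col9a2 had values above 0 in control cultures. Among the 19 that passed it in both compartments, 7 were called lower in control cultures (21.3% of all genes of that kind) and 5 in PTX cultures (22.5%), with medians of -0.59 and -0.50 against 0.04 and 0.05 for all such genes. In 14 of the 32 collagens every process library lay below every somata library, which held for 25.1% of all tested genes. Of these collagens Col8a1, Col9a3, Col10a1, Col11a2, Col19a1, Col20a1, Col22a1 and Col28a1 passed the filter only through somata. For them the gap is a description and no support. The others were Col4a2, Col4a5, Col4a6, Col5a2, Col11a1 and Col25a1.

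With the replicate number as a block, 21 collagens were lower in processes of control cultures (28% of all genes) and 1 was higher, Col23a1 (29.8% of all genes), and in PTX cultures 21 were lower (29.6%) and 0 higher (30%). Scaling by library size alone, which lets the mitochondrial reads count, moved the median of all genes to -1.86 in control and -1.87 in PTX cultures, and 31 and 32 collagens were then lower. The split of all calls then went from 3688 higher and 3135 lower to 191 higher and 13271 lower in control cultures and from 3680 and 3441 to 181 and 13318 in PTX cultures. With upper quartile scaling it was 2750 higher and 4704 lower in control and 2904 and 4768 in PTX cultures, with medians of -0.25 and -0.23, and 16 collagens were lower in each. DESeq2 called 9 collagens lower in each. The number of collagens called in control cultures was 6 without somata control replicate 1, 7 without processes control replicate 1 and 4 without processes control replicate 2. In PTX cultures it was 5 without somata PTX replicate 1 and 2 without processes PTX replicate 2. The fibroblast and meningeal markers moved the same way, 3 of 10 tested being lower in processes of control cultures (8 with the block) and 5 of 10 in PTX cultures (8 with the block), with medians of -1.29 and -1.39. Of these markers Dcn, Lum, Ogn, Foxc1, Slc6a13 and Islr passed the read filter only through the somata libraries. This favours lower values in processes, so their values are a description and no support. The 4 tested pericyte and smooth muscle markers went both ways. In control cultures 0 were higher and 1 lower in processes (3 and 1 with the block), with a median of 0.52. In PTX cultures 1 was higher and 1 lower (2 and 1 with the block), with a median of 0.28. The part of any of these cells in the compartment differences of the collagens was not tested.

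Of the 6 type IV chains, 3 were lower in processes of control cultures and 3 in PTX cultures (3 and 4 with the replicate block), with class medians of -0.61 and -0.80. Over all genes the shares were 21.9% and 24% (28% and 29.6% with the block). All 3 calls of each comparison came from the 4 chains that passed the read filter in both compartments. Col4a6, a chain that pairs with Col4a5 in some basement membranes, stood at 19.8 and 19.9 CPM in somata control and 18 and 20.2 CPM in somata PTX, against 11.7 and 10.3 CPM in processes control and 11.7 and 10.4 CPM in processes PTX. The compartments did not overlap, and the log2 fold change was -0.85 (SE 0.141, adjusted p = 0.000651) in control and -0.79 (SE 0.14, adjusted p = 0.000911) in PTX cultures, calls that held without any one library. Col4a5, mutated in Alport syndrome, stood at 115 and 88.8 CPM in somata control, 113 and 105 CPM in somata PTX, 79.8 and 57.3 CPM in processes control and 74.6 and 68.5 CPM in processes PTX. Every process library lay below every somata library, with log2 fold changes of -0.57 (SE 0.166, adjusted p = 0.0162) and -0.61 (SE 0.165, adjusted p = 0.011). The calls were lost without replicate 1 of somata (adjusted p = 0.137 in control and 0.0543 in PTX cultures) or replicate 2 of processes (0.131 and 0.0723). Col4a2, the partner chain of Col4a1, gave 68.8 and 51.6 CPM in somata control, 70.5 and 54.1 CPM in somata PTX, 43.0 and 30.7 CPM in processes control and 45.7 and 25.9 CPM in processes PTX. It too did not overlap, with log2 fold changes of -0.71 (SE 0.255, adjusted p = 0.041) and -0.81 (SE 0.255, adjusted p = 0.0222). Its calls were lost without the same libraries (adjusted p = 0.215 and 0.122 for replicate 1 of somata, 0.255 and 0.185 for replicate 2 of processes). Col4a1, whose start lies beside that of Col4a2, gave 65.5 and 40.9 CPM in somata control, 70.0 and 47.4 CPM in somata PTX, 57.1 and 34.8 CPM in processes control and 68.3 and 39.9 CPM in processes PTX. Its compartments overlapped, and the log2 fold changes of -0.21 (adjusted p = 0.608) and -0.12 (adjusted p = 0.762) did not pass. Whether the ratio of Col4a1 to Col4a2 differed between the compartments was not tested. Col4a3 and Col4a4, tested on few reads, stayed between 0.274 and 2.34 CPM in all libraries. The unblocked quasi-likelihood fit of all 8 libraries with the read filter and TMM scaling called neither in either comparison. Col4a4 in PTX cultures was called with the block (-1.06, adjusted p = 0.0308), by the likelihood ratio test, with upper quartile scaling and with no read filter. Scaling by library size alone called Col4a4 in both comparisons and Col4a3 in PTX cultures.

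Among the 9 tested fibrillar collagens 3 were called lower in control cultures and 0 in PTX cultures (7 and 4 with the replicate block), with class medians of -0.51 and -0.38. Of all genes 21.9% and 24% were lower (28% and 29.6% with the block). Of the 8 that passed the read filter in both compartments 2 and 0 were called (6 and 4 with the block), the remaining one being Col11a2. Among all genes that passed it in both, 21.3% and 22.5% were lower without the block, so that 2 of 8 lay near that share. Col5a2, a chain of type V collagen, which starts fibrils and sets their width, stood at 34.9 and 29.5 CPM in somata control, 30.3 and 27.1 CPM in somata PTX, 24.9 and 15.9 CPM in processes control and 24.7 and 19.0 CPM in processes PTX. The compartments did not overlap, and it was lower in processes by a log2 fold change of -0.66 (SE 0.198, adjusted p = 0.0186) in control cultures, while in PTX cultures the value was -0.40 (adjusted p = 0.114, with the block 0.00581). The call was lost without somata control replicate 1 (adjusted p = 0.102) or processes control replicate 2 (adjusted p = 0.155). Col11a1, of type XI collagen, which is known from cartilage fibrils, gave 28.2 and 31.0 CPM in somata control, 22.8 and 31.7 CPM in somata PTX, 21.6 and 21.1 CPM in processes control and 22.6 and 20.6 CPM in processes PTX. The gap between the nearest libraries of the compartments was small, with log2 fold changes of -0.47 (SE 0.161, adjusted p = 0.0333) and -0.33 (adjusted p = 0.108, with the block 0.0341). Col11a2 was at 1.36 and 1.57 CPM in somata control and 0.781 and 0.587 CPM in processes control, a log2 fold change of -1.09 (SE 0.409, adjusted p = 0.0482), and at 1.22 and 1.31 CPM against 1.15 and 0.804 CPM in PTX cultures (log2 fold change -0.38, adjusted p = 0.421). Without any one of the 4 control libraries the calls of Col11a1 (adjusted p between 0.0565 and 0.135) and of Col11a2 (between 0.0776 and 0.193) were lost, and that of Col11a2 also without either somata PTX library (0.0683 and 0.0718). DESeq2 called neither Col11a1 (adjusted p = 0.0527) nor Col11a2 (0.196), and Col11a2 was also lost with no read filter (0.071) and when only the libraries compared were fitted (0.056).

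The fibrillar chains of skin and bone showed no called difference between the compartments in the unblocked fit of all 8 libraries with the read filter and TMM scaling. With no read filter Col1a2 and Col3a1 were called lower in both comparisons, and with library size scaling Col1a1 was as well. Col1a1 stood at 24.2 and 8.7 CPM in somata control, 23.4 and 12.2 CPM in somata PTX, 24.5 and 10.5 CPM in processes control and 24.8 and 10.9 CPM in processes PTX. The replicates of each condition lay far apart and the compartments overlapped fully, with log2 fold changes of 0.10 (SE 0.537) and -0.02 (SE 0.531), adjusted p = 0.894 and 0.981, and the block did not call it either (adjusted p = 0.482 and 0.869). Col1a2, its partner chain, gave 14.5 and 3.76 CPM in somata control, 13.8 and 5.55 CPM in somata PTX, 7.36 and 3.76 CPM in processes control and 9.19 and 3.72 CPM in processes PTX. Col3a1, the type III chain of vessels and other elastic tissue, gave 62.9 and 19.1 CPM in somata control, 69.6 and 33.9 CPM in somata PTX, 26.2 and 13.9 CPM in processes control and 49.5 and 16.9 CPM in processes PTX. For both genes the somata and process libraries overlapped. Within a replicate number processes were lower in all pairs for Col3a1, and for Col1a2 in all but replicate 2 of control cultures. The log2 fold changes with the block were -0.65 (adjusted p = 0.011) and -0.59 (adjusted p = 0.0132) for Col1a2 and -0.94 (adjusted p = 1.22e-05) and -0.72 (adjusted p = 0.000102) for Col3a1, where the values without it were -0.70 and -0.62, and -1.03 and -0.66, with adjusted p between 0.186 and 0.449. Without somata control replicate 1 the unblocked values in control cultures were 0.57 for Col1a2 and 0.07 for Col3a1, and without somata PTX replicate 1 that of Col1a2 in PTX cultures was 0.20.

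Of the remaining type V chains, Col5a1 gave 17.9 and 18.5 CPM in somata control, 19.4 and 19.5 CPM in somata PTX, 16.6 and 11.6 CPM in processes control and 20.7 and 15.5 CPM in processes PTX. Its replicates in somata were close, and its log2 fold changes between compartments of -0.36 and -0.11 did not pass (adjusted p = 0.124 and 0.624), the first passing with the block (adjusted p = 0.0344). Col5a3 gave 13.0 and 18 CPM in somata control, 12.3 and 12.5 CPM in somata PTX, 17.1 and 12 CPM in processes control and 11.8 and 8.35 CPM in processes PTX. It was not called in either compartment comparison (adjusted p = 0.75 and 0.28). Col27a1, at 2.18 to 8.73 CPM, was called with the block in control cultures (log2 fold change -0.51, adjusted p = 0.0304). Without the block only scaling by library size alone called it, in both compartment comparisons. Its values are given here and further on although its level put it outside the genes chosen for naming.

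Among the other collagens 5 of 17 were lower in processes of control cultures and 8 of 17 in PTX cultures (11 and 13 with the block), with class medians of -0.89 and -1.14. Over all genes 21.9% and 24% were lower (28% and 29.6% with the block). Of these 17, 10 passed the read filter only through the somata libraries, and they gave 3 of the 5 calls in control and 6 of the 8 in PTX cultures. Of the 7 that passed it in both compartments, 2 were lower in control cultures, Col16a1 and Col25a1, and 2 in PTX cultures, Col6a1 and Col25a1 (6 and 6 with the block), with medians of -0.79 and -0.72. Among all genes of that kind 21.3% and 22.5% were lower without the block, so that 2 of 7 lay near these shares. Col25a1, a membrane-spanning collagen made by neurons and first found in amyloid plaques, stood at 13.6 and 11.8 CPM in somata control, 12 and 11.7 CPM in somata PTX, 7.92 and 3.88 CPM in processes control and 7.0 and 5.13 CPM in processes PTX. All process libraries lay below all somata libraries, with log2 fold changes of -1.10 (SE 0.258, adjusted p = 0.00533) and -0.98 (SE 0.255, adjusted p = 0.00872), the second of which was not called without processes PTX replicate 2 (adjusted p = 0.0858). Col19a1, a FACIT collagen known from hippocampal interneurons, gave 4.25 and 4.23 CPM in somata control, 4.6 and 5.21 CPM in somata PTX, 1.34 and 0.822 CPM in processes control and 2.07 and 1.31 CPM in processes PTX. The somata replicates were nearly equal, and the log2 fold changes were -1.96 (SE 0.319, adjusted p = 0.000556) and -1.55 (SE 0.285, adjusted p = 0.00115), called also without any one library, although it passed the read filter only through somata. The markers of inhibitory neurons moved in the same direction, 5 of 8 being lower in processes of control cultures and 6 of 8 in PTX cultures, with medians of -0.87 and -1.07, and their part in the Col19a1 difference was not tested. Of these markers Lhx6, Npy and Vip also passed the read filter only through somata, which favours lower values in processes. Col16a1, a FACIT collagen, gave 60.7 and 83.5 CPM in somata control, 70.5 and 91.9 CPM in somata PTX, 53.5 and 47.2 CPM in processes control and 71.1 and 57.5 CPM in processes PTX. It was lower in processes of control cultures, with a log2 fold change of -0.52 (SE 0.183, adjusted p = 0.0378), and in PTX cultures, where the libraries overlapped, the value was -0.34 (adjusted p = 0.143, with the block 0.0373). The call was lost without somata control replicate 2 (adjusted p = 0.279) or processes control replicate 1 (0.0755) or 2 (0.186).

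The short chain collagens Col8a1, Col8a2 and Col10a1 were low in all libraries. They passed the read filter only through the somata libraries, so their compartment calls are a description. Col8a2, a chain of the network under the corneal endothelium, stood at 2.38 and 1.21 CPM in somata control, 3.02 and 2.12 CPM in somata PTX, 0.223 and 0.352 CPM in processes control and 1.26 and 0.603 CPM in processes PTX. The process values rest on 2 to 11 reads per library, and the log2 fold changes were -2.61 (SE 0.648, adjusted p = 0.00712) and -1.49 (SE 0.477, adjusted p = 0.0239). They did not pass without processes control replicate 1 (adjusted p = 0.0631) in control cultures, and without somata PTX replicate 1 (0.118) or processes PTX replicate 2 (0.184) in PTX cultures. Col10a1, known from growth plate cartilage, gave 1.53 and 2.59 CPM in somata control, 2.16 and 1.78 CPM in somata PTX, 0.446 and 0.705 CPM in processes control and 0.919 and 0.101 CPM in processes PTX. It had 1 to 8 reads in the process libraries, and log2 fold changes of -1.84 (SE 0.601, adjusted p = 0.0274) and -2.00 (SE 0.614, adjusted p = 0.0194). In control cultures the call was lost without somata control replicate 2 (adjusted p = 0.124) or processes control replicate 1 (0.157) or 2 (0.0785), and in PTX cultures without somata PTX replicate 1 (0.0628) or processes PTX replicate 2 (0.154). Col8a1, the partner of Col8a2, gave 2.81 and 1.84 CPM in somata control, 2.59 and 2.54 CPM in somata PTX, 1.0 and 1.29 CPM in processes control and 1.26 and 0.402 CPM in processes PTX. It was called in PTX cultures (log2 fold change -1.65, SE 0.452, adjusted p = 0.011, without processes PTX replicate 2 0.109) and not in control cultures without the block (log2 fold change -1.01, adjusted p = 0.0761, with the block 0.0277). 
Other collagens called only in PTX cultures were Col6a1, Col9a3 and Col20a1. Col6a1, a chain of the beaded filaments that surround many cells, stood at 17 and 7.09 CPM in somata control, 24.4 and 12.3 CPM in somata PTX, 6.24 and 4.58 CPM in processes control and 10.7 and 5.53 CPM in processes PTX. The lowest somata library lay below the highest process library, and the log2 fold change was -1.20 (SE 0.452, adjusted p = 0.0467) in PTX cultures and -1.14 (adjusted p = 0.0788, with the block 1.74e-05) in control cultures. Col9a3, a FACIT chain of cartilage, gave 1.74 and 1.88 CPM in somata control, 2.09 and 1.31 CPM in somata PTX, 1.0 and 0.939 CPM in processes control and 0.804 and 0.402 CPM in processes PTX, with log2 fold changes of -0.89 (adjusted p = 0.0991) and -1.52 (adjusted p = 0.0173). Col20a1 gave 3.78 and 2.98 CPM in somata control, 6.08 and 2.41 CPM in somata PTX, 1.0 and 2.23 CPM in processes control and 1.95 and 1.41 CPM in processes PTX, with log2 fold changes of -1.07 (adjusted p = 0.108) and -1.36 (adjusted p = 0.0392). For Col9a3 and Col20a1 no process library reached a somata library, but both passed the read filter only through somata. Without somata PTX replicate 1 the adjusted p was 0.31 for Col6a1, 0.118 for Col9a3 and 0.376 for Col20a1, and without processes PTX replicate 2 it was 0.285, 0.145 and 0.199. Col6a1 was also not called without either processes control library (0.0682 and 0.0683), nor Col20a1 without processes PTX replicate 1 (0.0828) or when only the libraries compared were fitted (0.0503). DESeq2 did not call Col6a1 (0.145) or Col9a3 (0.059).

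Col6a2, Col12a1 and Col18a1 were called in both compartment comparisons with the block and in neither by the same fit without it. With no read filter, and with library size scaling, all of them were called in both. When only the libraries compared were fitted, Col6a2 was called in control and Col18a1 in PTX cultures, and upper quartile scaling called Col6a2 in control cultures. Col6a2, which lies beside Col6a1 and is its partner chain, gave 18.5 and 11 CPM in somata control, 20.0 and 13.0 CPM in somata PTX, 11.3 and 5.64 CPM in processes control and 13.1 and 7.14 CPM in processes PTX. Its blocked log2 fold changes were -0.81 (adjusted p = 7.66e-05) and -0.72 (adjusted p = 0.000135). Col12a1, a FACIT collagen of type I fibrils, gave 13.6 and 8.19 CPM in somata control, 13.7 and 9.74 CPM in somata PTX, 8.14 and 6.22 CPM in processes control and 11.3 and 5.53 CPM in processes PTX. With the block its values were -0.59 (adjusted p = 0.0054) and -0.51 (adjusted p = 0.00995). Col18a1, a basement membrane collagen, gave 15.9 and 4.94 CPM in somata control, 15.6 and 8.13 CPM in somata PTX, 6.24 and 5.28 CPM in processes control and 7.35 and 3.82 CPM in processes PTX. The blocked values were -0.77 (adjusted p = 0.00639) and -1.09 (adjusted p = 0.000217), and without somata control replicate 1 the unblocked value in control cultures was 0.22. The remaining tested collagens, Col7a1, Col9a2, Col22a1 and Col28a1, stayed at or below 3.05 CPM. The unblocked quasi-likelihood fit of all 8 libraries with TMM scaling did not call them. Col22a1 in PTX cultures was called with the block (-1.44, adjusted p = 0.0423), by the likelihood ratio test and with upper quartile scaling. Scaling by library size alone called each of these genes in both comparisons.

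**Figure D2:**
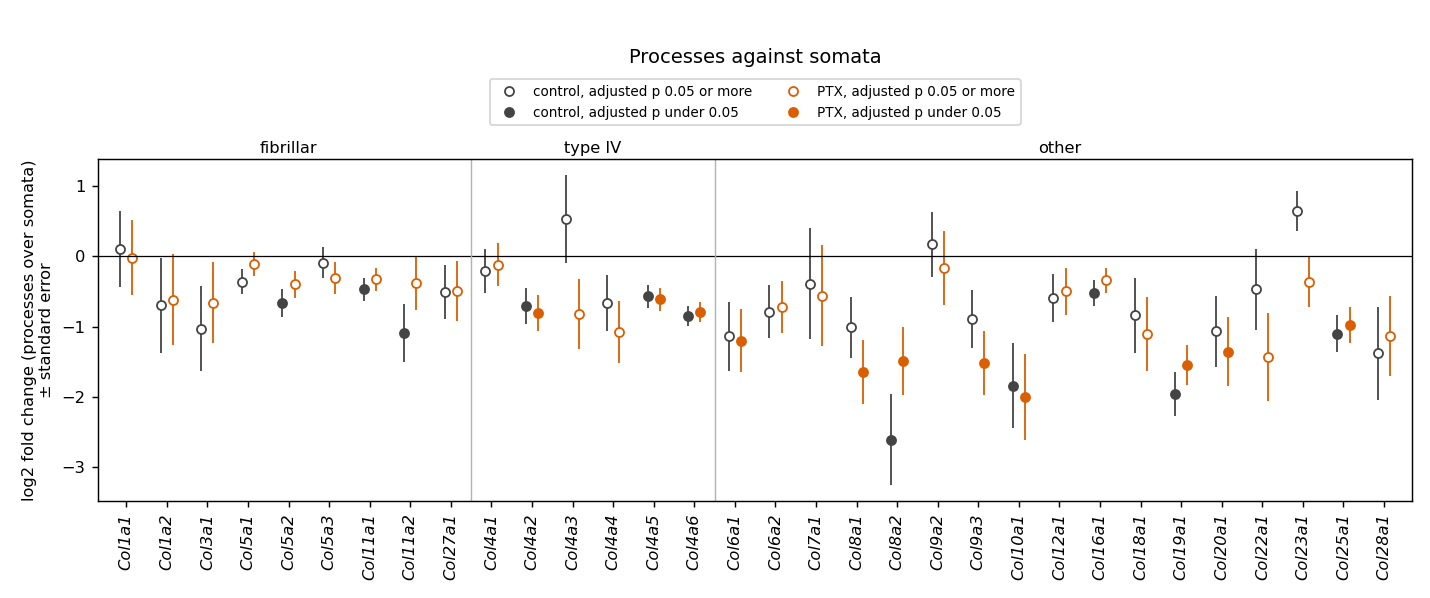
Log2 fold change of each tested collagen between processes and somata, with its standard error, in control (grey) and PTX cultures (orange), by class. Filled points passed an adjusted p of 0.05 without the replicate block. All filled points lie below 0, and Col8a2 has the lowest value in control cultures (-2.61).

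The second comparison asked whether 48 h of PTX changed collagen transcripts in either compartment. In somata, 0 of the 32 tested collagens were called by edgeR's quasi-likelihood test, where 3.59% of all genes were, and 2 collagens had an unadjusted p under 0.05. DESeq2 called 0 and the likelihood ratio test 1, Col4a3. In processes 1 collagen was called, Col23a1, where 3.74% of all genes were. The median log2 fold change, PTX over control, was 0.11 in somata and 0.06 in processes, against -0.01 for all genes in each.

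Col23a1 was lower after PTX in processes. It stood at 3.79 and 3.52 CPM in processes control and 0.804 and 1.51 CPM in processes PTX, on 34, 30, 7 and 15 reads. The groups did not overlap, and the log2 fold change was -1.63 (SE 0.351, adjusted p = 0.03, with the block 0.0035). In somata it stood at 2.38 and 2.31 CPM in control and 1.44 and 1.61 CPM in PTX, again without overlap, but the log2 fold change of -0.62 (SE 0.274) did not pass the test (adjusted p = 0.303, with the block 0.114). Between the compartments of control cultures the same gene was called higher in processes with the block (log2 fold change 0.64, adjusted p = 0.0453, without the block 0.085) and by the likelihood ratio test (adjusted p = 0.0498), and the value turned to -1.17 when scaled by library size alone. The PTX call in processes was lost without somata control replicate 2 (adjusted p = 0.0518), without processes control replicate 1 (adjusted p = 0.164) or 2 (adjusted p = 0.0766), without processes PTX replicate 1 (adjusted p = 0.15) or 2 (adjusted p = 0.0534), and when only the 4 process libraries were fitted (adjusted p = 0.0648).

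With the replicate block, 4 collagens were called for PTX in somata, 3 higher and 1 lower, where 14% of all genes were called. Col6a1 was higher by a log2 fold change of 0.64 (SE 0.128, adjusted p = 0.00114, without the block 0.541), rising by 0.53 between the libraries numbered 1 and by 0.79 between those numbered 2. Col3a1 was higher by 0.45 (SE 0.123, adjusted p = 0.0151, without the block 0.858), with differences of 0.15 and 0.83. Col4a3, a chain of the basement membrane of the kidney glomerulus, stood at 0.85 and 0.274 CPM in somata control and 2.23 and 1.57 CPM in somata PTX, on 20, 7, 62 and 37 reads. Its groups did not overlap, with a log2 fold change of 1.77 (SE 0.364, adjusted p = 0.0014, without the block 0.068). Col4a3 passed the read filter only through the somata PTX libraries, so its rise is a description and no support. Without somata control replicate 1 the unblocked fit called it as well (log2 fold change 2.76, adjusted p = 0.0418). Its neighbour Col4a4, with an overlapping start window, had a log2 fold change of -0.31 (adjusted p = 0.743, with the block 0.486). Col27a1, a fibrillar collagen of cartilage, stood at 5.31 and 8.73 CPM in somata control and 2.91 and 5.59 CPM in somata PTX, and was lower by 0.74 on the log2 scale (value -0.74, SE 0.162, adjusted p = 0.00252, without the block 0.343). In processes the block called Col3a1 beside Col23a1, with a log2 fold change of 0.67 (SE 0.164, adjusted p = 0.00776, without the block 0.644), where 11.2% of all genes were called. Leaving out somata control replicate 2, somata PTX replicate 1 or processes PTX replicate 1 turned the unblocked Col3a1 value to -0.29, -0.28 and -0.25.

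Beside these calls, 4 of the 10 tested fibroblast and meningeal markers were higher and 0 lower after PTX in somata with the block. In processes the block called 1 of 10 higher (Mgp) and 0 lower. Without the block 0 were called in either compartment. With the block 14% of all genes were called in somata and 11.2% in processes, both directions together. The median of the 10 markers in somata with the block was 0.15. Dcn, a proteoglycan that binds type I collagen, stood at 2.21 and 1.65 CPM in somata control and 6.44 and 2.92 CPM in somata PTX (log2 fold change with the block 1.24, SE 0.222, adjusted p = 0.000344). Lum, a related proteoglycan, stood at 2.25 and 1.06 CPM and 5.32 and 2.63 CPM (log2 fold change with the block 1.26, SE 0.23, adjusted p = 0.000403). The part of fibroblast or meningeal RNA in the rises of Col3a1 and Col6a1 was not tested.

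The interaction, which is how much the PTX difference of processes exceeds that of somata, was called for 0 collagens, as for 0% of all genes, where 572 of 14309 genes and 1 collagen, Col23a1 (value -1.01, SE 0.45), had an unadjusted p under 0.05. DESeq2, the likelihood ratio test and the replicate block also called 0 collagens, where the first and second each called 4 genes of all and the block 15 (0.105%).

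**Figure D3:**
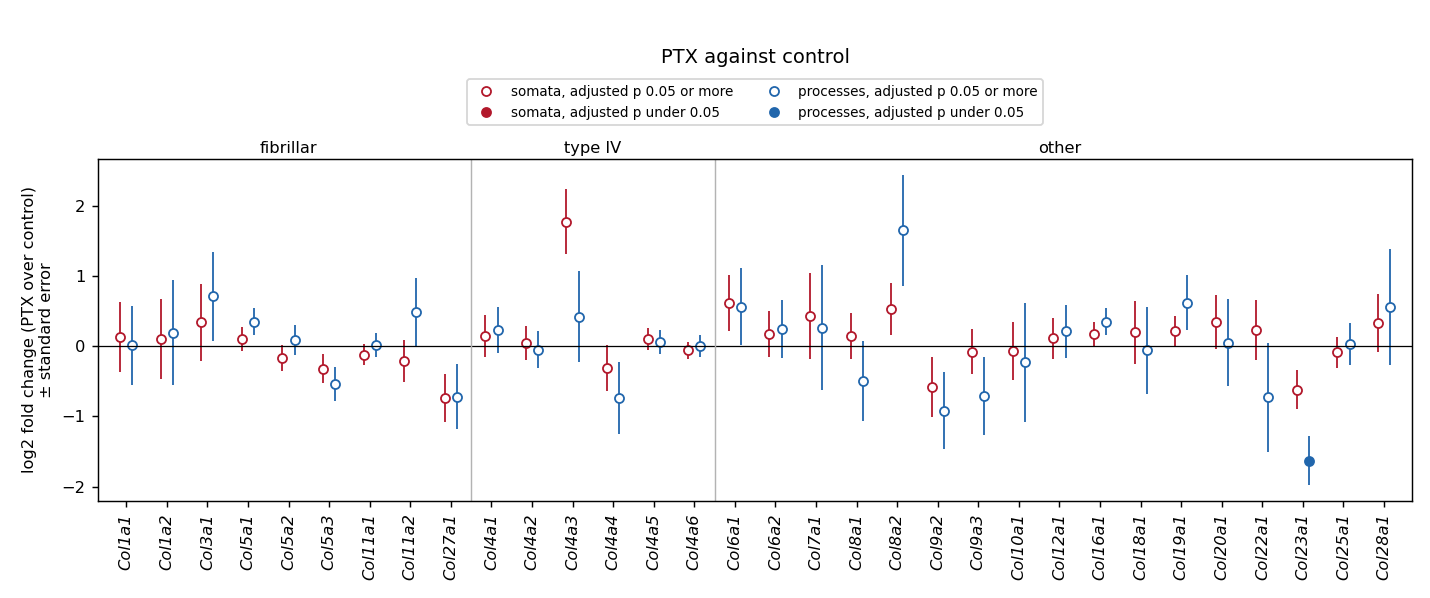
Log2 fold change of each tested collagen after PTX, with its standard error, in somata (red) and processes (blue), by class. Filled points passed an adjusted p of 0.05 without the replicate block, which Col23a1 in processes did (-1.63), and no somata point is filled.

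The third comparison set the replicates themselves against each other. Fitted as replicate 2 minus replicate 1 over all 4 conditions, a comparison added after the data were seen, 12 of the 32 tested collagens were lower in replicate 2, where 7.11% of all genes were, and 2 were higher, where 5% of all genes were. The median was -0.31 for the collagens and -0.01 for all genes. This fit counts the 4 libraries of each replicate number as separate observations, although what the numbers mark is not stated. Its p-values measure the spread among these 8 libraries and do not extend to other replicates. In 13 of the 32 the first replicate lay above the second in all 4 conditions, which held for 16.7% of all tested genes, and the reverse held for Col9a2 and Col27a1. Under the other tests, scalings and filters and without any one library, 12 to 16 collagens were called, with 17 from the somata libraries alone and 13, among the 19 collagens tested there, from the process libraries alone.

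Chains of type I and type III collagen were among those with the largest differences. Col1a2 was lower in replicate 2 by a log2 fold change of -1.48 (SE 0.136, adjusted p = 1.16e-07), Col3a1 by -1.33 (SE 0.0996, adjusted p = 4.23e-09) and Col1a1 by -1.20 (SE 0.0965, adjusted p = 1.17e-08). For Col1a1 all 4 libraries numbered 1 (23.4 to 24.8 CPM) lay above all 4 numbered 2 (8.7 to 12.2 CPM), whatever the compartment or treatment. Among the other fibrillar chains Col5a2 was lower by -0.31 (SE 0.0821, adjusted p = 0.0141), and Col27a1 was higher by 0.80 (SE 0.138, adjusted p = 0.000396). Col5a1, Col5a3, Col11a1 and Col11a2 were not called, with values between -0.15 and 0.16. The fibrillar class therefore held members with opposite signs.

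Of the type IV chains, Col4a1 was lower in replicate 2 by -0.67 (SE 0.0667, adjusted p = 3.49e-07) and Col4a2, with which it shares its start region, by -0.50 (SE 0.074, adjusted p = 8.63e-05). Col4a5 was lower by -0.26 (SE 0.0708, adjusted p = 0.0158), while Col4a6 was at 0.00 (SE 0.0915, adjusted p = 0.996). Col4a3 and Col4a4 had values of -0.55 (SE 0.298) and -0.49 (SE 0.232) and were not called. Among the others, Col18a1 was lower by -1.10 (SE 0.148, adjusted p = 2.47e-05), Col6a1 by -1.02 (SE 0.111, adjusted p = 1.64e-06), Col6a2 by -0.76 (SE 0.0972, adjusted p = 1.22e-05) and Col12a1 by -0.64 (SE 0.111, adjusted p = 0.000402). Col7a1, of the anchoring fibrils of skin, was lower by -1.48 (SE 0.252, adjusted p = 0.000362) at 0.503 to 2.62 CPM, and Col9a2, a FACIT chain, was higher by 0.87 (SE 0.211, adjusted p = 0.0081) at 0.804 to 3.05 CPM. Both were singled out after their values were seen. The neuronal collagens Col25a1 and Col19a1 were not called, at -0.27 (adjusted p = 0.154) and -0.03 (adjusted p = 0.948), and neither was Col16a1, at 0.13 (adjusted p = 0.409).

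Markers of several cell types differed between the replicates beside the collagens. The 12 fibroblast and meningeal markers summed to 61.1 and 36.6 CPM in somata control, 69.5 and 52.8 CPM in somata PTX, 28.4 and 20.1 CPM in processes control and 35.6 and 26.6 CPM in processes PTX, so that the sum was higher in replicate 1 of each condition. Of the 10 tested, 6 were lower in replicate 2, among them Islr (-1.5, SE 0.243, adjusted p = 0.000214) and Slc6a13 (-1.35, SE 0.292, adjusted p = 0.00338), and 1 was higher, Mgp (1.02, SE 0.194, adjusted p = 0.00108). Of the inhibitory neuron markers 6 of 8 and of the neuron markers 4 of 10 were lower in replicate 2. Of the oligodendrocyte lineage markers 7 of 10 and of the astrocyte markers 2 of 9 were higher. Over all genes 7.11% were lower and 5% higher. Of the 4 tested pericyte and smooth muscle markers, Tagln (-1.59, SE 0.0932, adjusted p = 3.89e-11) and Myh11 (-0.40, SE 0.112, adjusted p = 0.0214) were lower. The part of any of these cell types in the collagen differences was not tested.

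**Figure D4:**
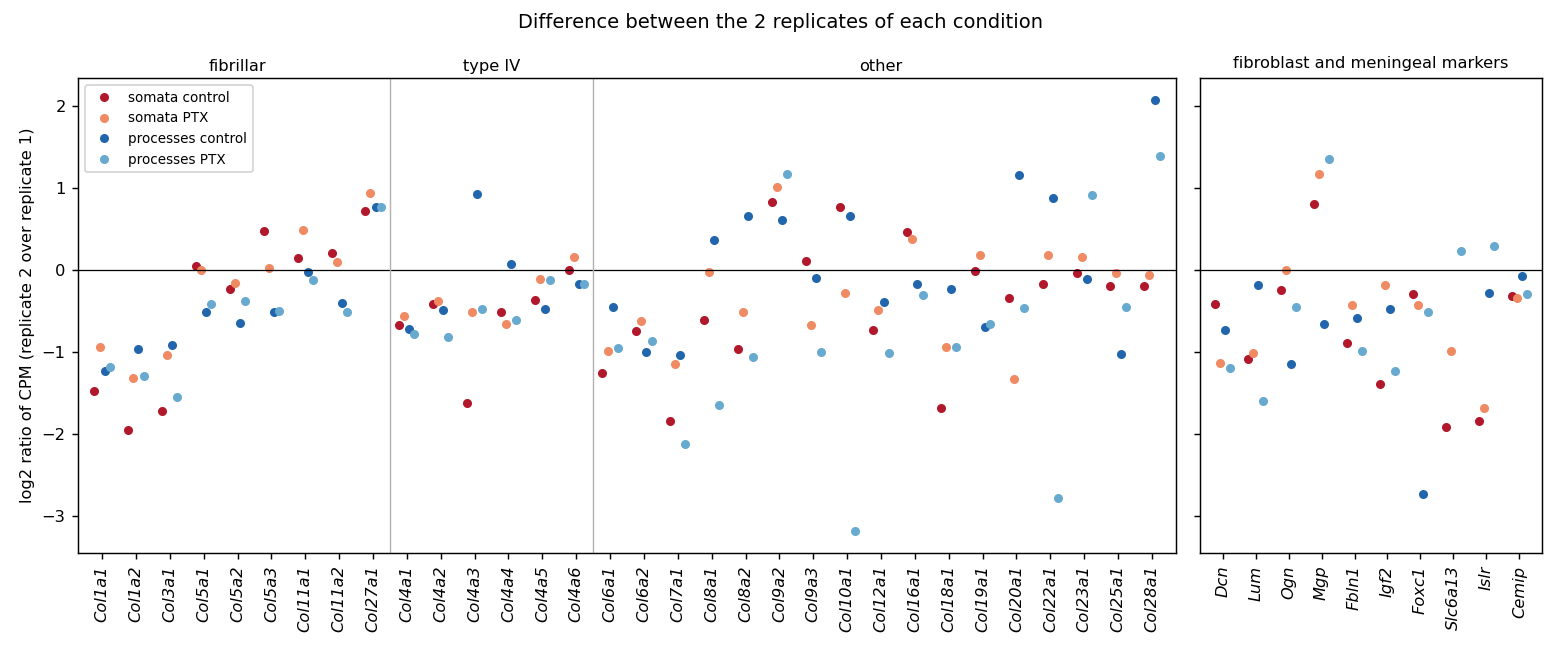
Log2 ratio of CPM, replicate 2 over replicate 1, in each of the 4 conditions, for the 32 tested collagens by class and for the 10 tested fibroblast and meningeal markers. Points below 0 are lower in replicate 2. All 4 points lie below 0 for 13 collagens, Col1a1, Col1a2 and Col3a1 among them, and above 0 for Col9a2 and Col27a1.

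Genes for the making of collagens were counted beside them. Of 17 tested genes for chain modification and folding, 10 were lower and 1 higher in processes of control cultures (12 and 2 with the block), with a median of -0.55. Over all genes the shares were 21.9% lower and 25.8% higher (28% and 29.8% with the block), which apply to the list counts that follow. Among those lower were P4ha2, a prolyl hydroxylase (-1.66, SE 0.432, adjusted p = 0.00909), Plod1, a lysyl hydroxylase (-1.24, SE 0.156, adjusted p = 9.58e-05), and P3h3 (-1.21, SE 0.203, adjusted p = 0.000694). The gene that was higher was Fkbp14, a prolyl isomerase (1.24, SE 0.271, adjusted p = 0.00356). Of 10 genes for propeptide cleavage and cross-linking, 4 were lower and 0 higher in processes of control cultures (7 lower with the block), the largest values being those of Adamts2, which removes the amino-terminal propeptide of procollagen (-1.61, SE 0.583, adjusted p = 0.0417), and of Loxl3, a lysyl oxidase-like cross-linking enzyme (-1.09, SE 0.247, adjusted p = 0.0042). Of this list Adamts2, Adamts14, Lox and Pcolce, and of the list for modification and folding P4ha3, passed the read filter only through the somata libraries. Their compartment values are therefore a description and no support.

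Among receptors and partners of collagens, calls went in both directions. Of 8 collagen receptors 2 were higher and 0 lower in processes of control cultures (2 and 3 with the block). Ddr2, a receptor tyrosine kinase for fibrillar collagen, stood at 6.93 and 11 CPM in somata control and 30.9 and 51.4 CPM in processes control, a log2 fold change of 2.19 (SE 0.326, adjusted p = 0.000308). The other was Itgb1, the beta chain of the collagen integrins (0.76, SE 0.114, adjusted p = 0.000327). Of this list Itga1, Itga2, Itga11 and Lair1 passed the read filter only through the somata libraries. This favours lower values in processes, so the compartment values of these receptors are a description and no support. Of 12 basement membrane partners, 2 were higher and 2 lower (2 and 5 with the block). Among them Lamc3 passed the read filter only through the somata libraries, so its compartment value is a description and no support. Sparc, which binds collagens and is made by astrocytes in brain, stood at 382 and 384 CPM in somata control and 2720 and 3150 CPM in processes control (2.94, SE 0.145, adjusted p = 5.13e-07), and Nid1, which links laminin to type IV collagen, was higher by 0.62 (SE 0.143, adjusted p = 0.00469). The laminin chain Lamb1 (-1.01, SE 0.317, adjusted p = 0.023) and Agrn (-0.43, SE 0.131, adjusted p = 0.02) were lower. Of the 9 tested astrocyte markers 5 were higher and 2 lower in processes of control cultures, and their part in these differences was not tested. Of 10 breakdown genes, 3 were lower and 0 higher (4 and 1 with the block), where 21.9% of all genes were lower. The 3 were the protease Ctsk (-1.84, SE 0.522, adjusted p = 0.014) and the inhibitors Timp3 (-0.91, SE 0.131, adjusted p = 0.000256) and Timp2 (-0.50, SE 0.101, adjusted p = 0.00212). Of this list Ctsk and Mmp9 passed the read filter only through the somata libraries, so their compartment values are a description and no support.

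After PTX, 3.59% of all genes in somata and 3.74% in processes passed the test, and 14% and 11.2% with the block. In somata, of the 17 genes for modification and folding 1 was higher (4 with the block), of the 10 for cleavage and cross-linking 1 was higher and 1 lower (3 and 2 with the block), of the 8 receptors 1 was lower (1 lower and 1 higher), of the 12 partners 0 were called (1 higher and 1 lower), and of the 10 breakdown genes 1 was higher and 1 lower (2 and 2). In processes 1 gene for modification and folding was higher (3 with the block) and 1 for cleavage and cross-linking (3 higher and 1 lower with the block), while of the receptors, partners and breakdown genes 0 were called (1 higher and 1 lower, 1 and 1, and 2 and 1 with the block). Tll1, a protease that cleaves the carboxy-terminal propeptide of fibrillar collagens, stood at 5.99 and 5.01 CPM in somata control and 53.0 and 50.6 CPM in somata PTX, and at 3.35 and 3.99 CPM and 21.5 and 17.2 CPM in processes. It was higher in every PTX library than in every control library, with log2 fold changes of 3.24 (SE 0.149, adjusted p = 5.24e-06) in somata and 2.39 (SE 0.192, adjusted p = 0.000384) in processes. Adamts3, which cleaves the amino-terminal propeptide, stood at 9.22 and 8.11 CPM in somata control and 3.13 and 2.71 CPM in somata PTX, a log2 fold change of -1.56 (SE 0.188, adjusted p = 0.00169). The cross-linking enzymes Lox and Loxl2 were higher with the block only, in somata by 1.14 (SE 0.308, adjusted p = 0.013) and 0.81 (SE 0.183, adjusted p = 0.00324) and in processes by 2.03 (SE 0.531, adjusted p = 0.0129) and 1.05 (SE 0.315, adjusted p = 0.0314). Mmp9, which degrades type IV collagen and gelatin, was at 0.17 and 0.0783 CPM in somata control, on 4 and 2 reads, and at 1.44 and 1.4 CPM in somata PTX, on 40 and 33 reads (3.46, SE 0.515, adjusted p = 0.00519), and Timp2, a metalloprotease inhibitor, was lower (-0.47, SE 0.0983, adjusted p = 0.0253). Mmp9 passed the read filter only through the somata PTX libraries, so its rise is a description and no support. The glycosyltransferase Colgalt2 was higher in somata (0.86, SE 0.168, adjusted p = 0.0188) and the lysyl hydroxylase Plod2 in processes (0.95, SE 0.219, adjusted p = 0.0404). The receptor chain Itga11 was lower in somata (-2.30, SE 0.495, adjusted p = 0.029), on 95 and 72 reads in control and 30 and 6 reads in PTX. Itga11 would not have passed the read filter without the somata control libraries, so its fall is a description and no support.

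Between the replicates, 6 of the 12 basement membrane partners were lower in replicate 2 and 0 were higher, where 7.11% of all genes were lower and 5% higher. These were the laminin chains Lama1 (-0.96, SE 0.148, adjusted p = 0.000131), Lama2 (-0.91, SE 0.14, adjusted p = 0.000126), Lama4 and Lamb1 and the nidogens Nid1 and Nid2. Among the enzymes for modification and folding 3 of 17 were lower and 2 higher, among those for cleavage and cross-linking 2 of 10 were lower, and among the receptors 1 of 8 was lower and 1 higher. Of the breakdown genes 1 of 10 was lower and 3 were higher.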

How the data were processed

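Per the labels and the study's methods, ribosome-depleted total RNA was made into strand-preserving libraries. The authors trimmed the reads, aligned them with Subread subjunc to Rnor 6.0 (the submitters' processing notes name STAR), counted them per Ensembl gene with featureCounts and summed the counts by symbol. The deposited counts are whole numbers without normalization, and whether strand was used in counting is not given in the sources used here, so reads of overlapping, antisense or near-identical genes are of uncertain origin. The authors' tables of their own PTX comparisons (fold changes, mean log2 CPM, p-values) were not used. Col6a3 and Col21a1 were not analysed here.

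A gene was tested if 2 or more libraries each held over 20 of its reads, which 14309 genes did. The TMM factors of somata libraries lay between 1.81 and 1.93, those of process libraries between 0.486 and 0.57. All 8 libraries were fitted with edgeR 4.0.16 (R 4.3.3), 1 coefficient per condition, and tested with glmQLFit and glmQLFTest. P-values were adjusted by Benjamini-Hochberg over all tested genes, with a threshold of 0.05. The standard error of a log2 fold change was taken as its size over the root of F. Replicate differences came from a fit that also held the replicate number (the block). The same results were computed with DESeq2 1.42.0, the likelihood ratio test, other scalings and filters, fewer libraries, the block, and each library left out. The tests were checked on simulated counts.

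The replicate numbers pair the libraries: across 14309 genes the deviations of libraries with the same number correlated with r between 0.274 and 0.54 in all 6 pairs of conditions, above 0.1. With the block the common dispersion was 0.00459, without it 0.0132. Tested collagens with a mean of at least 5 CPM, or called in any of the 5 contrasts between conditions, are named with every value, and at most 4 called genes of each other list by the size of their change. The members and lists were chosen with earlier results of these data known.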

Additional observations from a re-analysis of the deposited data

How the results depend on the processing

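The replicate block moved the number of collagens called from 0 to 4 for PTX in somata, from 1 to 2 for PTX in processes, from 11 to 22 between compartments of control cultures and from 11 to 21 in PTX cultures, and it changed no call of the interaction. The likelihood ratio test called 1 for PTX in somata, and DESeq2 called 9 in each compartment comparison. Without a filter, with all 43 collagens kept, the counts for these comparisons in the same order were 3, 2, 18 and 20. With at least 10 reads in every library, which left 18 collagens, 0 were called for PTX in processes, 7 in control and 5 in PTX cultures. Library size scaling gave 31 and 32 between compartments, and fitting the 4 process libraries alone gave 0 for PTX in processes. Leaving out 1 library gave 0 to 1 for PTX in somata, 0 to 1 for PTX in processes, 4 to 12 in control cultures and 2 to 13 in PTX cultures, where a group of 1 library is assumed to vary like the others. The interaction stayed at 0 throughout, and the replicate difference, 14 at first, at 12 to 17. Signs turned when 1 library was left out for Col3a1 after PTX in somata (range -0.29 to 1.44, with -0.28 in a second setting) and in processes (-0.25 to 1.30), and between compartments of control cultures for Col1a2 (-1.39 to 0.57), Col3a1 (-1.66 to 0.07) and Col18a1 (-1.47 to 0.22), and of PTX cultures for Col1a2 (-1.39 to 0.20). With library size scaling Col23a1 turned to -1.17 between compartments of control cultures. The cause was not tested, beyond the fewer genes or libraries that a setting holds. Of the other values of single collagens, 647 kept their direction and side of the threshold, 104 came to pass it and 55 no longer passed. These counts cover only collagens in comparisons where the fit without or with the block called them. Of the 104, 26 came to pass with the block, by which such values were in part chosen. Low reads in processes limit what could be detected there.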
